A study of Mus musculus with 9 samples.

Results

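Type I interferon-stimulated antiviral genes were followed in colon macrophages that lacked a subunit of the phagocyte NADPH oxidase. The set was a list of 42 gene symbols, all found in the expression table, and 41 of them reached a normalized count of at least 10 in at least 3 of the 9 libraries. These 41 were among 14404 genes that passed the same filter, of 42454 in the table. RNA was sequenced from lamina propria macrophages, sorted as Ly6C low and positive for MHC class II, of the colon of 6-week-old mice. The genotypes were gp91phox-/-, p47phox-/- and WT, with 3 libraries each. The gene behind gp91phox (Cybb) encodes the membrane-bound catalytic subunit of the oxidase, and the gene behind p47phox (Ncf1) the cytosolic subunit that organises its assembly. Strain background, the way the alleles were made, and whether a library held 1 mouse or several were not stated. The labels name no treatment for any group.

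Type I interferons, the alpha and beta interferons, are secreted by cells that sense foreign nucleic acids. They bind the receptor IFNAR on the same or neighbouring cells, whose kinases JAK1 and TYK2 phosphorylate STAT proteins. STAT2 is one of these, and IRF9 joins it in the complex ISGF3, which binds interferon-stimulated response elements (ISREs) in promoters. Interferon gamma acts through a separate receptor and through gamma-activated sequences (GAS), and many genes answer to both. The products of the genes described here bind or cut viral RNA, modify proteins, or raise the sensitivity of the cell to the next signal. Gut macrophages are known to keep a low level of this programme in health.

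The labelled cell type was checked first. All 15 listed macrophage markers were tested, and their summed normalized counts were 977489 to 1182228 in gp91phox-/-, 918576 to 1205714 in p47phox-/- and 796956 to 1038071 in WT libraries, a sum made up mostly of H2-Ab1, Lyz2, Csf1r and the C1q genes. Single macrophage markers differed between genotypes. Cx3cr1, the fractalkine receptor of gut macrophages, had 24878, 17832 and 14745 normalized counts in gp91phox-/- replicates 1 to 3, 598, 5056 and 899 in p47phox-/- and 4995, 4059.8 and 5542 in WT. It was higher in gp91phox-/- than in p47phox-/- (log2 fold change 3.74, adjusted p = 0.00164), with Itgam (0.79, adjusted p = 0.0363) and Fcgr1 (0.62, adjusted p = 0.0265) also higher and Cd68 lower (-0.46, adjusted p = 0.0462). Against WT, Fcgr1 was higher in gp91phox-/- (0.65, adjusted p = 0.0251) and Cd163 in p47phox-/- (0.99, adjusted p = 0.0288), in the limma fit described with the comparisons. The part of these marker differences in the results was not tested. Ncf1 had 13617, 12136 and 13365 normalized counts in gp91phox-/- replicates 1 to 3, 2718, 3733 and 3133 in p47phox-/- and 10066, 8989.8 and 10815 in WT, so the p47phox-/- libraries were the lowest 3 (log2 fold change against WT -1.65). Cybb, like all 1362 genes of chromosome X, was listed at 0 in every library, so the gp91phox-/- label could not be checked from its own gene. Libraries held 31141107 to 52797368 reads. In p47phox-/- replicates 2 and 3, reads fell on 14323 and 14268 genes, against 17754 in replicate 1, so the comparisons with p47phox-/- are also given without these libraries. Summed B cell markers were 510.4 to 559 in gp91phox-/-, 8795 to 16406 in p47phox-/- and 9996 to 19497 in WT, and all 8 were called lower in gp91phox-/- against WT. Of the other marker lists, against WT, gp91phox-/- had 4 of 8 conventional dendritic cell, 3 of 6 plasma cell and 1 of 4 T and innate lymphoid cell markers lower and 1 of 7 fibroblast markers higher, and p47phox-/- had 2 of 7 fibroblast markers higher. Neutrophil, epithelial and endothelial markers had 0 calls against WT in either knockout. None of the listed markers was at 0 in all 9 libraries. In bulk libraries such as these, fewer cells of a type and less RNA per cell cannot be told apart.

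Promoter sequence was looked up because the set was listed by its response to interferon, and the pathway's binding motifs can be read in it. RefSeq windows (GRCm38.p6, from 250 bases before to 50 bases after a transcript start) were found for 31 of the 41 genes, in 38 windows. The ISRE core searched was GAAANNGAAA on both strands, where N is any base and matches may overlap. It was present in 15 of the 31 genes (48.4%), against 3.96% of 10932 tested genes with a window. The GAS motif searched was TTCNNNGAA, which reads the same on both strands, and 6 of the 31 genes held it (19.4%), against 8.26% of tested genes. Oas1a and Eif2ak2 held both. The 250 bases before the start are shown for the first listed start of Irf1, which had the largest fold change of the set in gp91phox-/- against WT, and for 3 antiviral effectors that hold an ISRE core. Capitals mark the motif matches.
Irf1: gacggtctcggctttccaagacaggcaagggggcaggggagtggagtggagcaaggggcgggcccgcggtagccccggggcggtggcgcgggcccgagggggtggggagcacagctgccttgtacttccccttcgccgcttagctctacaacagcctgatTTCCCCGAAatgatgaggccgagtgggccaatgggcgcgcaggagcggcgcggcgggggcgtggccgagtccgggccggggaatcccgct
Isg15: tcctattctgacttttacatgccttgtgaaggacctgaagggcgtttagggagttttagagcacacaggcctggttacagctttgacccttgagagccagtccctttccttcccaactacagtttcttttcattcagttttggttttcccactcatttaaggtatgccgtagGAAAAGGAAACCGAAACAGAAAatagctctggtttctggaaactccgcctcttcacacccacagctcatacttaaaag
Ifit1: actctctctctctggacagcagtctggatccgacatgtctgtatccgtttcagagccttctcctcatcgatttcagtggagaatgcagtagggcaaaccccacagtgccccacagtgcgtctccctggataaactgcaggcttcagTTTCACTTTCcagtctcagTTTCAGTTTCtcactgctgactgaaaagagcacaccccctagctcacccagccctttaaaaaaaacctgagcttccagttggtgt
Rsad2: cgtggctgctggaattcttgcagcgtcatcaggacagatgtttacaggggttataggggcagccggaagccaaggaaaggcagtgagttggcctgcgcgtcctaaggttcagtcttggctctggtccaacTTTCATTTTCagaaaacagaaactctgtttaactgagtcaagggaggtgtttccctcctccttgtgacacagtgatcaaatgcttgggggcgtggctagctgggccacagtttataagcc
The Irf1 window (chr11:53769764-53770013, plus strand) held a GAS match beginning 90 bases before the start and no ISRE core. The Isg15 window (chr4:156200819-156201068, minus strand) held 3 overlapping ISRE cores beginning 78, 72 and 66 bases before the start. The Ifit1 window (chr19:34640639-34640888, plus strand) held ISRE cores on the opposite strand at 104 and 85 bases, and the Rsad2 window (chr12:26456453-26456702, minus strand) held 1 at 120 bases. A match describes these letters only, and binding was not measured. Parp9 and Parp14, called higher in gp91phox-/- against WT in the tests below, are among the 10 genes with no window and count in neither class. Of the 15 genes with an ISRE core, 0 passed limma's test in gp91phox-/- against WT (DESeq2 called Isg15) and their median log2 fold change was 0.33, against 0.27 for the 16 genes whose windows lacked it.

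Resting levels of the antiviral programme spanned a wide range. Levels of different genes were compared per kilobase of exon (GENCODE M21 gene models), as normalized counts per kb in WT libraries. Isg15, the ubiquitin-like modifier, was highest at 3777 ± 424 (SD, n = 3), followed by Ifi27l2a, a small interferon-induced membrane protein, at 3134 ± 620.4. Oasl1 stood at 1769.6 ± 549.6, Irf1 at 1442 ± 109.9 and Irf7 at 1026 ± 90.9. Isg15 and Ifi27l2a did not differ beyond their spread, and neither did Oasl1 and Irf1. Ifi44 was lowest of the genes that passed the filter, at 15.6 ± 2.63 per kb. The 42nd gene, Trex1, which encodes a DNA exonuclease that clears cytosolic DNA, was listed at 0 in all 9 libraries. In GENCODE M21 every exonic base of Trex1 is shared with Atrip on the same strand, so reads from it may not have been assigned to either gene. No level or direction can be read for it.

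In gp91phox-/- macrophages, compared with WT, 3 of the 41 genes rose and 1 fell. Irf1, Parp9 and Parp14 were higher, with log2 fold changes of 1.22, 0.76 and 0.72, and Isg20 was lower, at -0.92. Across all 14404 genes, 7.05% were called in this comparison, 2.53% higher and 4.53% lower. The median log2 fold change of the set was 0.31, with 33 of 41 positive, against a median of 0.0057 over all genes tested. In 12 genes every gp91phox-/- library lay above every WT library (29.3% of the 41, against 15.1% of all genes), and in 2 genes, Mx1 and Isg20, every one lay below (18.2% of all genes). Calls are at an adjusted p under 0.05 in limma, with Benjamini-Hochberg adjustment over all 14404 genes. All fold changes are log2 fold changes on the log2(normalized count + 1) scale, also where given in parentheses before an adjusted p. By role, the ISG15 and ubiquitin or ADP-ribosyl genes had a median of 0.67 with 2 of 7 called higher, and the transcription factors 0.31 with 1 of 4. The OAS genes and PKR (0.36), the sensors (0.34), the IFIT genes (0.13) and the 8 remaining interferon-stimulated genes (0.29) had 0 called. The other effectors had a median of -0.17, with 1 of 7 called lower.

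In p47phox-/- macrophages, compared with WT, 0 of the 41 genes passed the same test. Across all genes, 1.12% were called. At an unadjusted p under 0.05 in limma, 4 genes were higher and 4 lower, beside 1090 and 1074 of all 14404 genes. On reads recovered from the table, edgeR called 0 of the set and 133 of all genes in either direction. DESeq2 called 2 higher, Irf1 and Ifi27l2a, beside 344 of all genes. The median log2 fold change of the set was -0.03, with 20 of 41 positive, against -0.02 over all genes. Every p47phox-/- library lay above every WT library for Irf1, Oas1a, Oas2, Xaf1 and Ifi27l2a (12.2% of the set, against 9.25% of all genes) and below for Ifit2, Mx1 and Isg20 (7.32%, against 8.49%). Without p47phox-/- replicates 2 and 3, which leaves that group with 1 library, the median of the set was -0.01. Both comparisons use the same 3 WT libraries, so they are not independent of each other.

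The knockouts were also tested directly against each other. In gp91phox-/- compared with p47phox-/-, 6 of the 41 genes were higher and 0 lower: Parp14 (0.83), Ifit2 (0.89), Parp9 (0.67), Ifih1 (0.67), Irf1 (0.66) and Dtx3l (0.62). Across all genes, 9.93% were called, 3.97% higher and 5.96% lower. In 11 genes every gp91phox-/- library lay above every p47phox-/- library (26.8%, against 13.6% of all genes), and in 0 below (17.3%). Without p47phox-/- replicates 2 and 3, that group holds 1 library assumed to vary like the others, so the size of the difference is given. The median log2 fold change of the set was 0.26 in that fit, against -0.04 over all genes. Without gp91phox-/- replicate 3 alone, 1 of the 41 genes was called higher (Irf1) and 1 lower (Ifi27l2a), beside 289 and 565 of all 14404 genes. The median log2 fold change of the set was then 0.03 in place of 0.20. Without gp91phox-/- replicate 1, 9 were called higher, and without replicate 2, 2 were, beside 367 and 242 of all genes. DESeq2 called 12 higher, adding Isg15, Herc6, Rsad2, Rtp4, Zbp1 and Eif2ak2, and 1 lower, Ifi27l2a. Of all 14404 genes it called 1092 higher and 1184 lower.

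**Figure D1:**
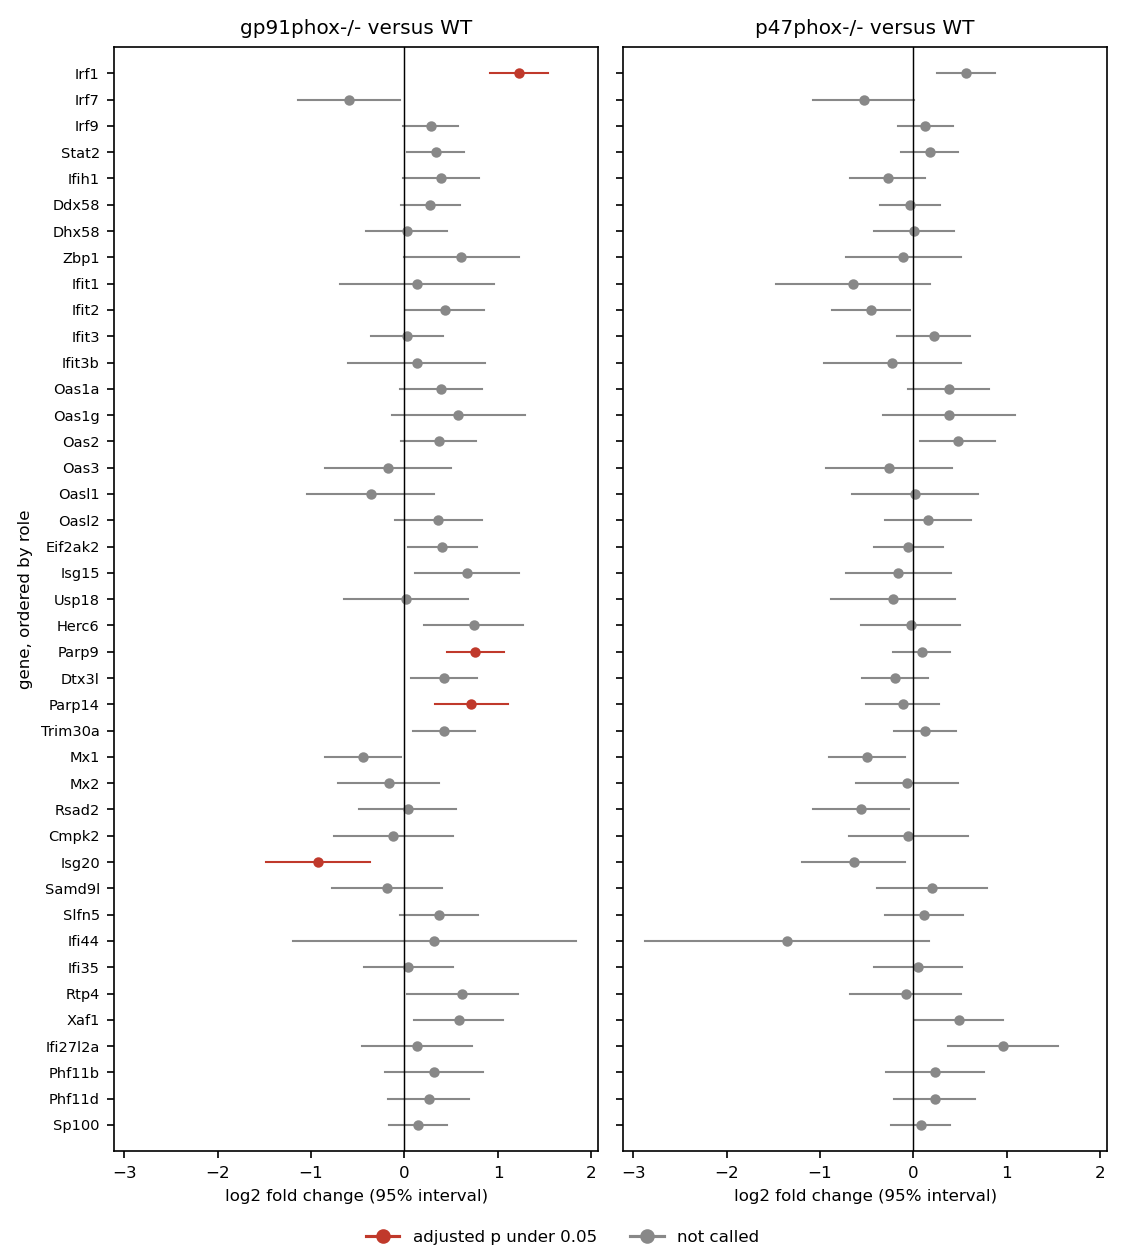
Fitted log2 fold change of each of the 41 interferon-stimulated genes in gp91phox-/- versus WT (left) and p47phox-/- versus WT (right), with 95% intervals from limma on log2(normalized count + 1), 3 libraries per group. Red marks an adjusted p under 0.05: Irf1, Parp9, Parp14 and Isg20 on the left, and no gene on the right.

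Of the 4 transcription factors of the set, Irf1 was the 1 that passed limma's test in any comparison. Irf1 (GRCm38, chr11:53770014-53778374, protein-coding) encodes an interferon regulatory factor that is induced by both interferon types and drives antiviral and antigen presentation genes. It had 11380.0, 15564 and 13481 normalized counts in gp91phox-/- replicates 1 to 3, 7759, 8162 and 9587 in p47phox-/- and 5404, 6229.6 and 5569 in WT. The 3 genotypes did not overlap, with gp91phox-/- highest, p47phox-/- between and WT lowest. Irf1 rose in gp91phox-/- against WT (log2 fold change 1.22, SE 0.14, adjusted p = 0.000252) and against p47phox-/- (log2 fold change 0.66, SE 0.14, adjusted p = 0.0125). The call against WT held in all 23 alternative settings, while the call against p47phox-/- was lost without gp91phox-/- replicate 2 (adjusted p = 0.064), without p47phox-/- replicates 2 and 3 (adjusted p = 0.0669) and without the mean-variance trend of the fit (adjusted p = 0.0558). In p47phox-/- against WT the fitted log2 fold change was 0.57 (adjusted p = 0.0856), which did not pass in limma, and DESeq2 called it (adjusted p = 0.0142).

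Irf7 encodes the factor that amplifies interferon alpha production. It had 2065, 2155 and 3795 normalized counts in gp91phox-/- replicates 1 to 3, 2488, 3779.7 and 2022 in p47phox-/- and 4007, 4135 and 3487 in WT. The gp91phox-/- and p47phox-/- libraries overlapped WT, since gp91phox-/- replicate 3 and p47phox-/- replicate 2 lay above the lowest WT library, while the other knockout libraries lay below all of WT. Neither difference from WT passed (-0.59, adjusted p = 0.192 in gp91phox-/- and -0.53, adjusted p = 0.34 in p47phox-/-).
Stat2 and Irf9 encode subunits of ISGF3. Stat2 had 2370.3, 2221 and 2506 normalized counts in gp91phox-/- replicates 1 to 3, 1909, 2412 and 2052 in p47phox-/- and 2031, 1609 and 2019.9 in WT. Irf9 had 1823, 1749 and 2112 normalized counts in gp91phox-/- replicates 1 to 3, 1511, 1923 and 1678 in p47phox-/- and 1617, 1550.1 and 1501 in WT. For both genes every gp91phox-/- library lay above every WT library, by small amounts, and p47phox-/- overlapped WT. The log2 fold changes in gp91phox-/- did not pass (0.33, adjusted p = 0.193 for Stat2 and 0.28, adjusted p = 0.257 for Irf9).

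Parp9 and Parp14 encode proteins that read or attach ADP-ribose, and Dtx3l encodes a ubiquitin ligase that works in a complex with PARP9. The 3 genes lie close together on chromosome 16 (GRCm38, chr16:35831892-35871518 for Parp14, chr16:35926515-35939027 for Dtx3l and chr16:35938470-35972621 for Parp9). Parp9 had 1437, 1489 and 1857 normalized counts in gp91phox-/- replicates 1 to 3, 1015, 991 and 983 in p47phox-/- and 923, 895 and 995 in WT. Every gp91phox-/- library lay above the other 6, and p47phox-/- overlapped WT. Parp9 rose against WT (log2 fold change 0.76, SE 0.14, adjusted p = 0.0061) and against p47phox-/- (log2 fold change 0.67, SE 0.14, adjusted p = 0.0102). The call against WT held in all 23 alternatives, and that against p47phox-/- was lost without gp91phox-/- replicate 3 (adjusted p = 0.0596) and without p47phox-/- replicates 2 and 3 (adjusted p = 0.12).

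Parp14 had 5471, 5754 and 7487 normalized counts in gp91phox-/- replicates 1 to 3, 4222, 2667 and 3714 in p47phox-/- and 3847, 3414 and 4046 in WT. All gp91phox-/- libraries again lay above the other 6, with replicate 3 the highest, and p47phox-/- replicate 2 was the lowest library. Parp14 rose against WT (log2 fold change 0.72, SE 0.18, adjusted p = 0.0304) and against p47phox-/- (log2 fold change 0.83, SE 0.18, adjusted p = 0.0118). The call against WT was lost when gp91phox-/- replicate 2 or 3, or WT replicate 1, 2 or 3, was left out (adjusted p = 0.0654 to 0.128), with values scaled to total reads (adjusted p = 0.0628) and without the mean-variance trend (adjusted p = 0.114). The call against p47phox-/- was lost without gp91phox-/- replicate 3 (adjusted p = 0.0542), without p47phox-/- replicates 2 and 3 (adjusted p = 0.191) and without the trend (adjusted p = 0.0621).
Dtx3l had 1256, 1274 and 1684 normalized counts in gp91phox-/- replicates 1 to 3, 1041, 879 and 805 in p47phox-/- and 936, 1097 and 1089 in WT. Every gp91phox-/- library lay above the other 6 here too, and p47phox-/- overlapped WT. Dtx3l was higher in gp91phox-/- than in p47phox-/- (log2 fold change 0.62, SE 0.16, adjusted p = 0.0316), but not at the threshold against WT (0.42, adjusted p = 0.151). The call was lost when replicate 2 or replicate 3 of either of these genotypes was left out (adjusted p = 0.0579 to 0.139) and when p47phox-/- replicates 2 and 3 were left out together (adjusted p = 0.349), and in 4 other settings (adjusted p = 0.0547 to 0.0779). Parp9 shares 9.40% of its exonic bases with Dtx3l on the opposite strand. The strand setting of the counting was not stated, so a small part of their reads cannot be told apart.

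**Figure D2:**
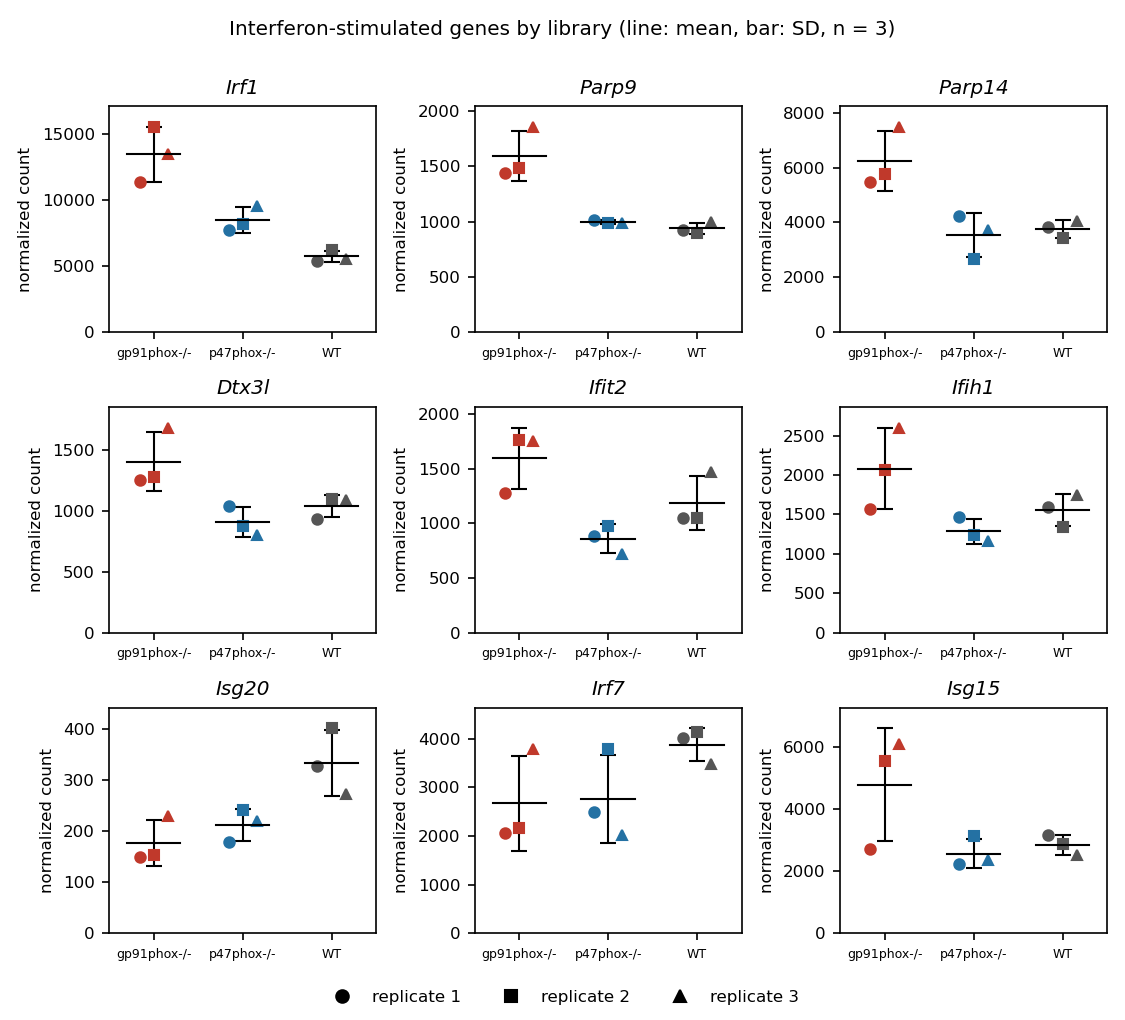
Normalized counts of 9 interferon-stimulated genes in each library by genotype (points, with 1 shape per replicate), with the mean and SD of 3 libraries. Irf1 lay between 11380.0 and 15564 in gp91phox-/- and between 5404 and 6229.6 in WT, while for Irf7 replicates 1 and 2 of gp91phox-/- lay below the WT range and replicate 3 within it, and for Isg15 replicates 2 and 3 lay above it and replicate 1 within it.

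The other genes of the ISG15 and ubiquitin group, Isg15, Usp18 (which removes ISG15 and damps IFNAR signalling), Herc6 (the ligase that attaches ISG15 in mice) and Trim30a, did not pass limma's test in any of the 3 comparisons. Isg15 had 2719, 5553 and 6117 normalized counts in gp91phox-/- replicates 1 to 3, 2220.0, 3119 and 2367 in p47phox-/- and 3171, 2865 and 2530.1 in WT. The gp91phox-/- group was divided, with replicates 2 and 3 above every other library and replicate 1 within the WT range. Its log2 fold change against WT was 0.67, adjusted p = 0.15, and without gp91phox-/- replicate 1 it was called (1.04, adjusted p = 0.00475). It was also called against WT with array weights (adjusted p = 0.0332) and by DESeq2 (adjusted p = 0.0283). Against p47phox-/- it stood at 0.83, adjusted p = 0.0624, and it was called with TMM scaling, with array weights, without gp91phox-/- replicate 1, by edgeR and by DESeq2 (adjusted p = 0.00195 to 0.0496).
Herc6 had 771, 811 and 1177 normalized counts in gp91phox-/- replicates 1 to 3, 691, 379 and 567 in p47phox-/- and 651, 524 and 463 in WT. All gp91phox-/- libraries lay above the other 6, with replicate 3 well above the rest. Its log2 fold change against WT was 0.74, adjusted p = 0.0945, and it passed without p47phox-/- replicate 2 (adjusted p = 0.0371), without p47phox-/- replicates 2 and 3 (adjusted p = 0.0455), in the fit of those 2 groups alone (adjusted p = 0.0450), with array weights (adjusted p = 0.0277) and in DESeq2 (adjusted p = 0.0319). Against p47phox-/- it passed without p47phox-/- replicate 1 (adjusted p = 0.0362) and in DESeq2 (adjusted p = 0.0225). Herc6 shares 13.7% of its exonic bases with an unnamed gene model, Gm45193, on the same strand.

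Of the 4 nucleic acid sensors, Ifih1, Ddx58 and Dhx58 encode the RNA helicases MDA5, RIG-I and LGP2, and Zbp1 encodes a sensor of Z-form nucleic acids. None passed against WT in either knockout. Ifih1 had 1571, 2069 and 2602 normalized counts in gp91phox-/- replicates 1 to 3, 1465, 1236 and 1157 in p47phox-/- and 1596, 1340.1 and 1743 in WT. All gp91phox-/- libraries lay above all p47phox-/- libraries, while gp91phox-/- replicate 1 lay within the WT range. The gene was higher in gp91phox-/- than in p47phox-/- (log2 fold change 0.67, SE 0.19, adjusted p = 0.0407). That call was lost without gp91phox-/- replicate 2 or 3, p47phox-/- replicate 2 or 3, or WT replicate 1 or 3 (adjusted p = 0.0546 to 0.161) and without both p47phox-/- libraries 2 and 3 (adjusted p = 0.393), and in 5 other settings (adjusted p = 0.0551 to 0.111). The log2 fold changes of the other 3 sensors in gp91phox-/- against WT were between 0.02 and 0.61.

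The IFIT proteins bind viral RNA that lacks host cap marks, and their 4 genes lie in 1 cluster on chromosome 19. Ifit2 had 1275, 1762 and 1755 normalized counts in gp91phox-/- replicates 1 to 3, 881, 979 and 721 in p47phox-/- and 1044, 1047 and 1469 in WT. All gp91phox-/- libraries lay above all p47phox-/- libraries, all p47phox-/- libraries lay below all WT libraries, and gp91phox-/- overlapped WT through WT replicate 3. Ifit2 was higher in gp91phox-/- than in p47phox-/- (log2 fold change 0.89, SE 0.19, adjusted p = 0.0121), and against WT neither knockout passed (0.43, adjusted p = 0.212 in gp91phox-/- and -0.46, adjusted p = 0.292 in p47phox-/-). The call was lost without gp91phox-/- replicate 2 or 3 (adjusted p = 0.0551 to 0.0599), without p47phox-/- replicates 2 and 3 (adjusted p = 0.125) and without the mean-variance trend (adjusted p = 0.0548).
Ifit1 had 200.2, 471 and 568 normalized counts in gp91phox-/- replicates 1 to 3, 301, 238 and 146 in p47phox-/- and 369.6, 268 and 411 in WT. Replicate 1 of gp91phox-/- lay below every WT library and replicates 2 and 3 above every WT library. Its log2 fold change in p47phox-/- against WT was -0.65, adjusted p = 0.44. Ifit3 and Ifit3b are near-copies whose reads the counting may have divided between them, and their log2 fold changes against WT were 0.03 and 0.13 in gp91phox-/- and 0.22 and -0.23 in p47phox-/-, none of which passed.

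The OAS enzymes make 2′-5′ oligoadenylate when they meet double-stranded RNA, which switches on RNase L. Of the mouse OAS-like proteins, OASL2 keeps this activity and OASL1 lacks it, and Eif2ak2 encodes PKR, which stops translation. None of these 7 genes passed limma's test in any comparison, DESeq2 called Eif2ak2 higher in gp91phox-/- than in p47phox-/- (0.51, adjusted p = 0.0403), and their log2 fold changes against WT were -0.36 to 0.58 in gp91phox-/- and -0.26 to 0.47 in p47phox-/-. Oasl1, which in mice represses translation of Irf7, was the highest of them per kb. It had 2095, 3950.2 and 5013 normalized counts in gp91phox-/- replicates 1 to 3, 3556, 5766 and 4435 in p47phox-/- and 5891, 3064 and 4890.1 in WT. Replicate 1 of gp91phox-/- was the lowest library of the 9, replicate 3 was among the higher ones, and the groups overlapped. The interval of its log2 fold change in gp91phox-/- against WT was -1.04 to 0.31, so neither direction was resolved at this spread. Oas1a and Oas1g are close paralogs, so the share of reads that each received is uncertain.

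Among the other effectors, Isg20, a 3′ to 5′ exonuclease of single-stranded RNA, was the 1 gene of the set that fell. Isg20 (GRCm38, chr7:78913396-78920396) had 149, 153 and 229 normalized counts in gp91phox-/- replicates 1 to 3, 179, 241 and 219 in p47phox-/- and 328, 402 and 272 in WT. All gp91phox-/- and all p47phox-/- libraries lay below all WT libraries, with WT replicate 2 the highest. It fell in gp91phox-/- against WT (log2 fold change -0.92, SE 0.26, adjusted p = 0.049), and in p47phox-/- the difference was -0.64, adjusted p = 0.265. The gp91phox-/- call was lost in 14 of 23 alternatives, among them each setting that left out gp91phox-/- replicate 1 or 2, p47phox-/- replicate 1 or 3, or any 1 WT library (adjusted p = 0.0537 to 0.19). B cells are known to express Isg20. WT replicate 2 also had the highest summed B cell markers (19497), and the gp91phox-/- libraries had 510.4 to 559 against 8795 to 16406 in p47phox-/-, and their part in the Isg20 difference was not tested.

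Mx1 encodes a dynamin-like GTPase of the interferon response. It had 584, 755 and 826 normalized counts in gp91phox-/- replicates 1 to 3, 588, 871 and 642 in p47phox-/- and 919, 1014 and 987 in WT. Every knockout library lay below every WT library, but neither difference passed (-0.45, adjusted p = 0.187 in gp91phox-/- and -0.49, adjusted p = 0.238 in p47phox-/-). Rsad2, which encodes viperin, had log2 fold changes against WT of 0.03 in gp91phox-/- and -0.56 in p47phox-/- and also did not pass. Samd9l, an inhibitor of viral translation, had 681, 779.5 and 1336 normalized counts in gp91phox-/- replicates 1 to 3, 1540.2, 935 and 1092 in p47phox-/- and 779.8, 1062 and 1263 in WT. Its highest library was p47phox-/- replicate 1, and the groups overlapped.

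Of the remaining genes, Ifi27l2a had the largest positive fold change in p47phox-/- against WT (0.96, adjusted p = 0.116). It had 1336, 1314 and 2193 normalized counts in gp91phox-/- replicates 1 to 3, 2401, 4298 and 2097 in p47phox-/- and 1782, 1291 and 1279 in WT. All p47phox-/- libraries lay above all WT libraries, with replicate 2 far above the rest, and gp91phox-/- overlapped WT. Without p47phox-/- replicate 2 the fold change was 0.65, and without replicates 2 and 3 it was 0.74. DESeq2 called it (adjusted p = 0.0136), and limma called it lower in gp91phox-/- than in p47phox-/- only without gp91phox-/- replicate 3 (-1.07, adjusted p = 0.0396). Xaf1, a pro-apoptotic factor, had 408, 408 and 619.9 normalized counts in gp91phox-/- replicates 1 to 3, 416, 545 and 373 in p47phox-/- and 311, 322 and 306 in WT. All knockout libraries of both genotypes lay above all WT libraries, and neither difference passed (0.58, adjusted p = 0.141 in gp91phox-/- and 0.49, adjusted p = 0.321 in p47phox-/-).
Ifi44 had 96.5, 121 and 143 normalized counts in gp91phox-/- replicates 1 to 3, 69.7, 86.2 and 7.62 in p47phox-/- and 101, 77.8 and 109 in WT. Replicate 3 of p47phox-/- stood far below the other 8, below the minimum of 10 used in the filter. The gene had the most negative fold change in p47phox-/- against WT, -1.35, with an interval of -2.87 to 0.16, and it did not pass (adjusted p = 0.383). In gp91phox-/- against p47phox-/- it stood at 1.67, adjusted p = 0.151. Without p47phox-/- replicate 3 these log2 fold changes were -0.29 and 0.61, and without replicate 2 they were -1.96 and 2.28, with 0 calls.

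Within genotypes, 1 library stood out most. Replicate 3 of gp91phox-/- was the highest of all 9 for 26 of the 41 genes (63.4%), against 9.46% of all genes tested, and the highest in its own group for 38 of 41 (92.7%), against 34.6% of all genes. Replicate 1 of gp91phox-/- was the lowest of its group for 30 (73.2%, against 36.1% of all genes). In p47phox-/-, replicate 2 was the highest of its group for 25 (61.0%, against 37.75% of all genes) and replicate 3 for 4 (9.76%, against 28.7%). After centring each gene on its mean over 9 libraries, the median of the set was -0.04, 0.03 and 0.50 in gp91phox-/- replicates 1 to 3, -0.10, 0.07 and -0.18 in p47phox-/- and -0.01, -0.19 and -0.10 in WT, on the log2 scale. Of the 9 libraries, gp91phox-/- replicate 3 had the highest median, and the next was 0.07. The median SD within gp91phox-/- was 0.32 for the set and 0.21 for all genes, within p47phox-/- it was 0.26 and 0.33, and within WT 0.22 and 0.25. Without gp91phox-/- replicate 3, the comparison of gp91phox-/- with WT gave 2 genes higher, 1 lower and a median of 0.19 in place of 0.31. Of all 14404 genes, 191 were higher and 428 lower in that fit.

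Markers that moved with this library were examined. The monocyte markers, 4 of 4 tested, summed to 8279, 5880 and 10029 in gp91phox-/- replicates 1 to 3, to 4557 to 4892 in p47phox-/- and to 3636 to 7871 in WT. Replicate 3 of gp91phox-/- was the highest library on that sum. Among these markers Ly6c2 had 114, 259 and 484 normalized counts in gp91phox-/- replicates 1 to 3, 478, 265 and 476 in p47phox-/- and 278, 525 and 302 in WT, so gp91phox-/- replicate 3 lay within the range of the other groups. The plasmacytoid dendritic cell markers, 9 of 10 tested, summed to 4504, 3658 and 3569 in gp91phox-/- replicates 1 to 3, 5144 to 6048 in p47phox-/- and 5691 to 6330 in WT, and were lowest in gp91phox-/- replicate 3. Most of that sum in gp91phox-/- was Tcf4, at 3445, 2918 and 2863 normalized counts in replicates 1 to 3. Spib and Ly6d, which B cells also express, were the 2 called lower in gp91phox-/- against WT. Siglech, a defining receptor of plasmacytoid dendritic cells, had 460.4, 439 and 409 normalized counts in gp91phox-/- replicates 1 to 3, 712, 1124 and 846 in p47phox-/- and 239, 301 and 334 in WT. All gp91phox-/- libraries lay above WT and below p47phox-/-, and Siglech was called higher in p47phox-/- against WT (1.60, adjusted p = 0.00432) and lower in gp91phox-/- than in p47phox-/- (-1.01, adjusted p = 0.00908), but not called in gp91phox-/- against WT (0.59, adjusted p = 0.112). The part of these cells in the result was not tested.

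**Figure D3:**
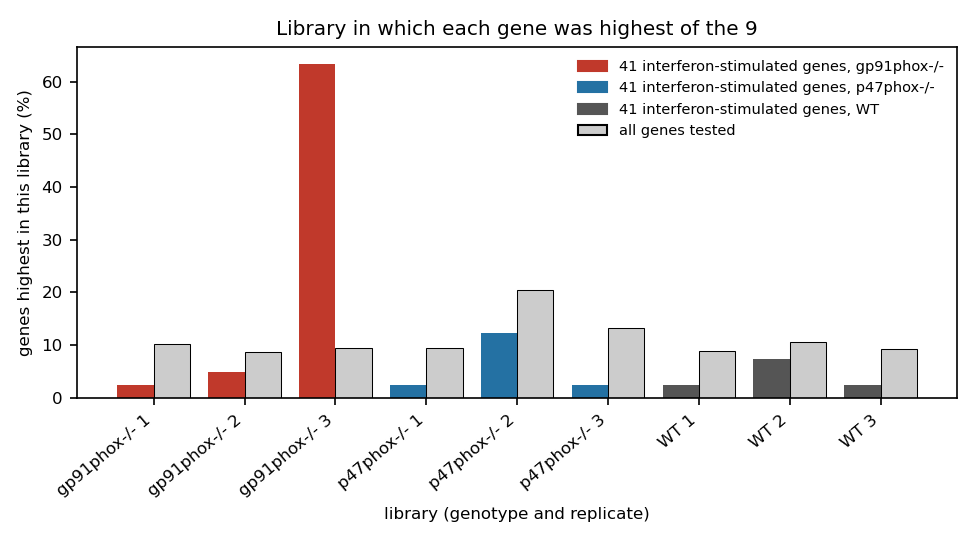
Share of genes that had their highest level in each library, for the 41 interferon-stimulated genes (coloured by genotype) and for all 14404 genes tested (grey), in percent. The set peaked in gp91phox-/- replicate 3 in 63.4% of its genes, against 9.46% of all genes.

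**Figure D4:**
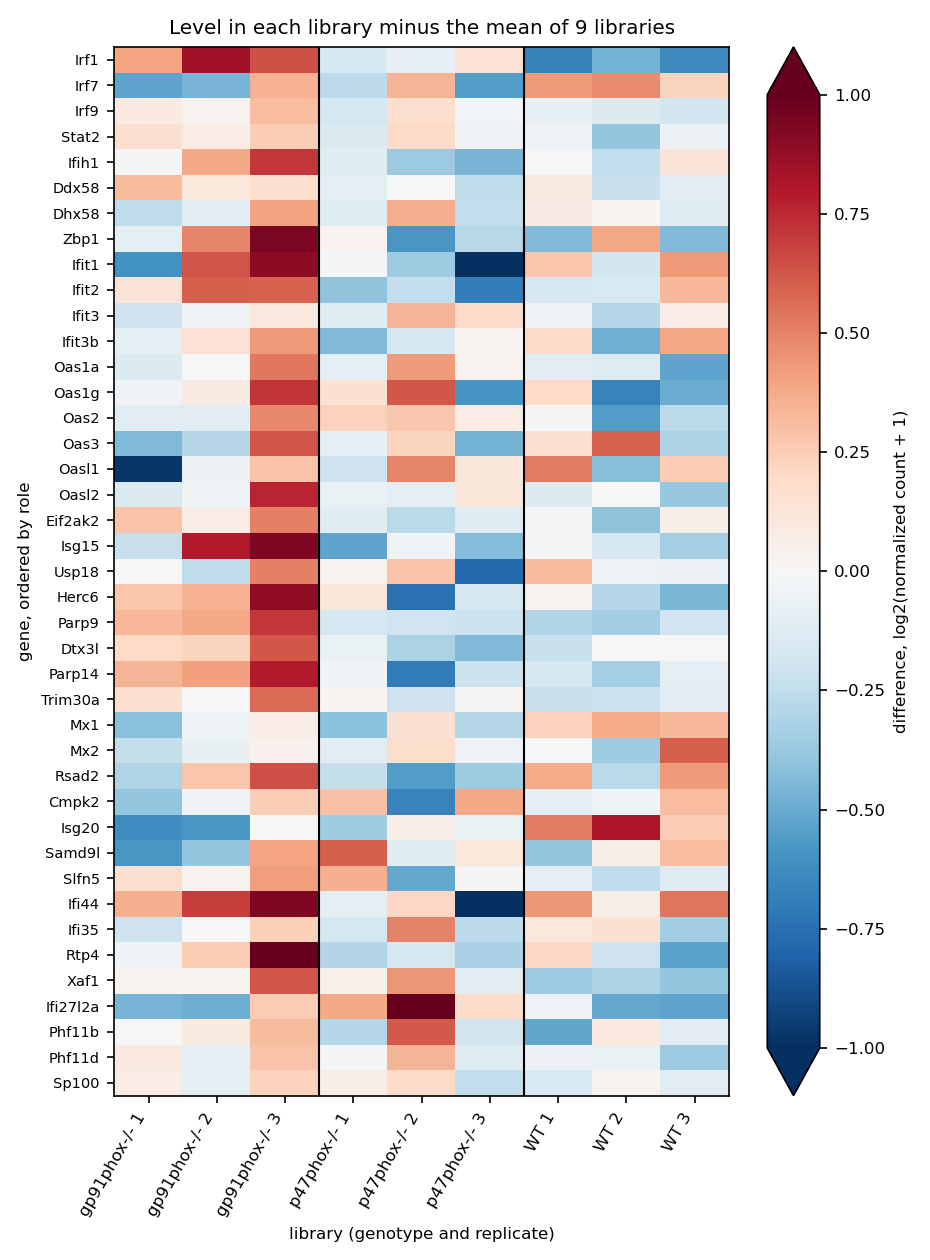
Level of each of the 41 genes in each library minus its mean over the 9 libraries, on the log2(normalized count + 1) scale, with libraries in columns and genes by role in rows. Red is above and blue below the mean, and colours saturate at 1 in either direction. The column of gp91phox-/- replicate 3 is red for nearly the whole set, Irf1 is red in all 3 gp91phox-/- libraries, and the cells of Ifit1 and Ifi44 in p47phox-/- replicate 3 are at the blue end of the scale.

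The rest of the pathway was read from lists of other genes. Of 20 interferon genes, 1 was expressed enough to be tested. Ifnb1, interferon beta, had 12.7, 47.7 and 38.5 normalized counts in gp91phox-/- replicates 1 to 3, 5.04, 72.1 and 16.2 in p47phox-/- and 11.6, 6.61 and 24.7 in WT, and did not differ at the threshold in any comparison (1.14, adjusted p = 0.537 in gp91phox-/- and 0.54, adjusted p = 0.823 in p47phox-/- against WT). The levels were low and the groups overlapped. All 13 listed interferon alpha genes were listed at 0 in all 9 libraries, and their close sequence similarity means that shared reads may have gone uncounted. Ifng had at most 10.9 normalized counts, in p47phox-/- replicate 1.
The receptors and kinases showed 0 calls of 9 against WT in either knockout. The receptor genes Ifnar1 and Ifnar2 had log2 fold changes of 0.06 and -0.12 in gp91phox-/- and -0.18 and -0.06 in p47phox-/- against WT. Ifngr1, a chain of the interferon gamma receptor, was higher in gp91phox-/- than in p47phox-/- (log2 fold change 0.52, SE 0.13, adjusted p = 0.026), a call that was lost when replicate 1 or replicate 3 of either of these genotypes was left out (adjusted p = 0.0545 to 0.0951) and without p47phox-/- replicates 2 and 3 (adjusted p = 0.118).

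Of 5 other STAT and IRF factors, 0 were called in limma's test of gp91phox-/- against WT. At an unadjusted p under 0.05 there was 1, beside 1388 genes higher and 1739 lower of all 14404. Against p47phox-/-, Irf2 was higher (0.48, adjusted p = 0.0245) and Irf5 lower (-0.64, adjusted p = 0.00825) in gp91phox-/-. The Irf2 call was lost without any 1 gp91phox-/- library or p47phox-/- replicate 3 (adjusted p = 0.0773 to 0.0787), and without p47phox-/- replicates 2 and 3 neither call held (adjusted p = 0.194 for Irf2 and 0.132 for Irf5).

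Of 27 other interferon-induced genes, 12 rose and 2 fell in gp91phox-/- against WT, beside 2.53% and 4.53% of all genes, and 0 passed in p47phox-/- against WT. The list holds many genes known for induction by interferon gamma: the chemokines Cxcl9 (1.85) and Cxcl10 (1.43), the guanylate-binding proteins Gbp7 (1.96), Gbp2 (1.22) and Gbp3 (0.97), the immunity-related GTPases Ifi47 (1.54), Irgm2 (1.35), Igtp (1.31) and Irgm1 (1.20), and the antigen-processing genes Psmb9 (0.75) and Tap1 (0.70). The 12th was Ly6e (0.57). Shisa5 (-0.52) and Trim25 (-0.45) fell. The list's median in gp91phox-/- against WT was 0.57, against 0.31 for the 41 antiviral genes and 0.0057 for all genes. The list was chosen with earlier results of these data known, which limits that comparison. In p47phox-/- against WT the list's median was 0.23. At an unadjusted p under 0.05 in limma, 8 of its genes were higher and 0 lower (1090 and 1074 of all 14404 genes). In 9 of the 27 every p47phox-/- library lay above every WT library (33.3%, against 9.25% of all genes). In 1 every one lay below (3.7%, against 8.49%).
Cxcl10 had 3912, 8135 and 7324 normalized counts in gp91phox-/- replicates 1 to 3, 1972, 2367 and 2244 in p47phox-/- and 2154, 2491 and 2203 in WT. Every gp91phox-/- library lay above the other 6, although replicate 1 was nearer to them than to the other gp91phox-/- libraries. Irgm2 had 883, 1046 and 1166 normalized counts in gp91phox-/- replicates 1 to 3, 522, 394 and 501 in p47phox-/- and 408, 429.6 and 368 in WT, and Gbp3 had 4617, 5672 and 4955 normalized counts in gp91phox-/- replicates 1 to 3, 2679, 3134 and 2676 in p47phox-/- and 2735, 2142 and 2923 in WT. For these genes too, every gp91phox-/- library lay above the other 6.
The calls of Cxcl9, Cxcl10, Gbp3, Gbp7, Ifi47, Igtp and Irgm2 against WT held in all 23 alternatives, and that of Irgm1 in every setting with a library left out. Psmb9 and Tap1 lost the call without gp91phox-/- replicate 2 or 3 or WT replicate 3 (adjusted p = 0.0501 to 0.0605), and Gbp2 without gp91phox-/- replicate 2 or 3 or WT replicate 1 or 3 (adjusted p = 0.076 to 0.101). Ly6e lost it without gp91phox-/- replicate 2 or 3, p47phox-/- replicate 3 or WT replicate 2 or 3 (adjusted p = 0.0542 to 0.141). Shisa5 lost it without gp91phox-/- replicate 1 or 2 or any 1 WT library (adjusted p = 0.0508 to 0.147), and Trim25 without any 1 gp91phox-/- or WT library or p47phox-/- replicate 3 (adjusted p = 0.061 to 0.168).

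**Figure D5:**
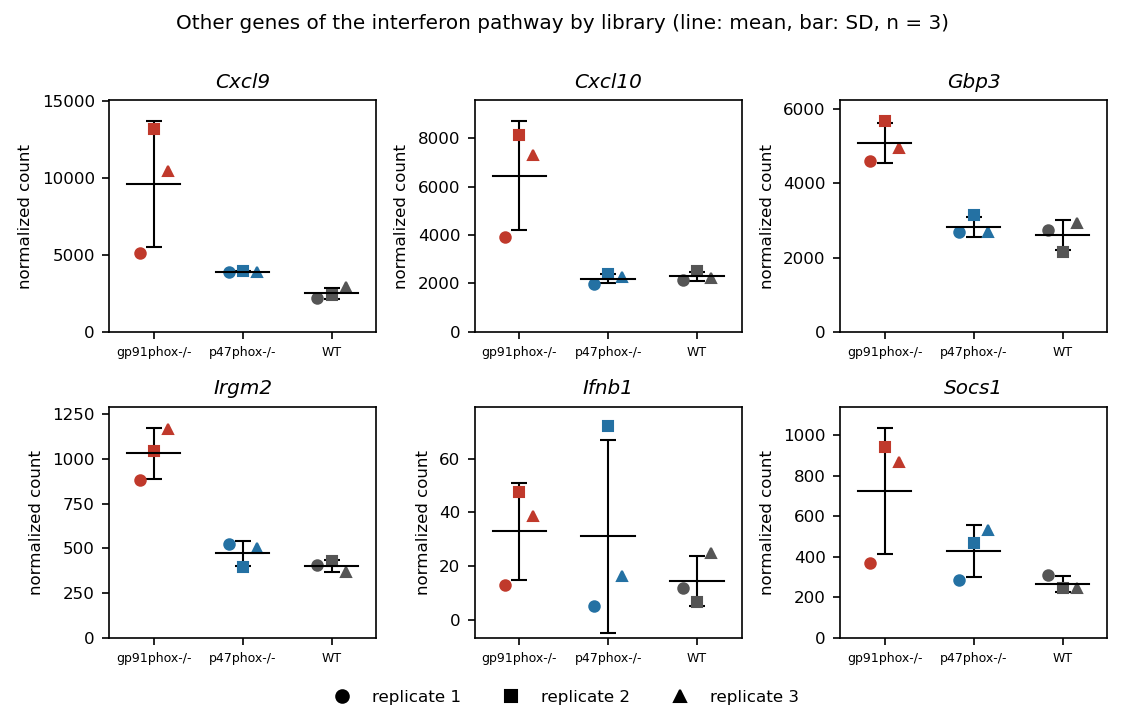
Normalized counts of 6 other genes of the interferon pathway in each library by genotype (points, with 1 shape per replicate), with the mean and SD of 3 libraries. Cxcl9, Cxcl10, Gbp3 and Irgm2 were higher in all 3 gp91phox-/- libraries than in any other library, while Ifnb1 stayed at or below 72.1 in every library and its groups overlapped.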

How the data were processed

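Per the submitters' processing notes and the labels' protocols, paired-end reads were demultiplexed by bcl2fastq 2.19, adapters were removed by Cutadapt, STAR 2.5.2b mapped the reads to mm10, featureCounts counted them, and DESeq2 is named as a tool. The authors deposited normalized counts, which are treated here as a signal: reads over a size factor per library. The values stepped in whole reads in 100% of cases (tolerance 0.01), which gave 31141107 to 52797368 reads per library. Strand and annotation settings are not given in those notes.

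The analysis used log2(normalized count + 1) of genes that reached 10 normalized counts in 3 or more libraries. A single limma 3.58.1 fit (R 4.3.3) held the 3 genotypes, with a mean-variance trend and Benjamini-Hochberg adjustment over 14404 genes. Alternatives changed the pseudocount, filter, scaling, samples in the fit, replicate block, array weights and trend, left out libraries, or ran edgeR 4.0.16 or DESeq2 1.42.0 on the recovered reads. Steps were tested on simulated data. A gene of the pathway lists is not reported here. Levels per kb used GENCODE M21 exon models. The 41 genes, the other pathway lists and the marker lists were chosen with earlier results of these data known, and the share of genes highest in 1 library was examined, and recomputed under other scalings, after the data were seen. Values in every library are given for genes called in any comparison, the transcription factors, the 3 genes with the highest mean normalized count and the 3 most positive and 3 most negative fold changes per comparison. Isg15 was added to them, and the genes whose promoters are shown were picked, after values were seen. The labels do not say that libraries came from separate animals, and the spread behind the p-values may therefore be partly technical.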

Additional observations from a re-analysis of the deposited data

Results flagged for a closer look

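Genes of the interferon response whose level differed between gp91phox-/- and p47phox-/-, in limma's direct comparison of those genotypes (adjusted p under 0.05 over all 14404 genes), were noted for a closer look. All values are log2 fold changes of gp91phox-/- over p47phox-/-. Of the 41 antiviral genes these were Ifit2 at 0.89, Parp14 at 0.83, Parp9 at 0.67, Ifih1 at 0.67, Irf1 at 0.66 and Dtx3l at 0.62. Among the other genes of the pathway, the chemokines Cxcl10 and Cxcl9 stood at 1.49 and 1.19. The GTPase genes Gbp7, Irgm2, Gbp3 and Igtp stood at 1.73, 1.13, 0.84 and 0.78. Irf2 was higher by 0.48, Ifngr1 by 0.52 and Tlr4, the receptor for bacterial lipopolysaccharide, by 0.83. Ifitm1, an antiviral membrane protein, had 1135, 1821 and 2900.1 normalized counts in gp91phox-/- replicates 1 to 3, 624, 1048 and 211 in p47phox-/- and 1037, 1068 and 851 in WT, a difference of 1.81 in which gp91phox-/- replicate 3 was the highest library and p47phox-/- replicate 3 the lowest. Irf5 and Shisa5 were lower in gp91phox-/-, at -0.64 and -0.47. The calls of Cxcl10, Gbp3, Gbp7 and Irgm2 held in all 23 alternatives, and without p47phox-/- replicates 2 and 3 the other 14 had an adjusted p of 0.0522 (Tlr4) to 0.393 (Ifih1). With 1 library left out, Cxcl9 and Igtp lost the call without gp91phox-/- replicate 2 or 3 (adjusted p = 0.0597 to 0.0604 and 0.066 to 0.0665). Tlr4 lost it when p47phox-/- replicate 2 or gp91phox-/- replicate 1 or 3 was left out (adjusted p = 0.0512 to 0.0797), and Ifitm1 when replicate 3 of either genotype or gp91phox-/- replicate 2 was left out (adjusted p = 0.0649 to 0.114). Shisa5 lost it without any 1 gp91phox-/- library, p47phox-/- replicate 2 or 3, or WT replicate 1 or 3 (adjusted p = 0.0546 to 0.16).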

How the results depend on the processing

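Counts of the 41 genes called moved with the processing as follows. In p47phox-/- versus WT the count higher was 2 in DESeq2 and 0 in edgeR, beside 344 and 69 of all 14404 genes. In limma it was 0 under each alternative that left out at most 1 library, beside 25 to 119 of all genes. In gp91phox-/- versus WT the count higher was 5 with array weights and 5 in DESeq2, beside 1001 and 757 of all 14404 genes. It was 2 with values scaled to total reads and 2 without the mean-variance trend (both without Parp14), beside 282 and 178 of all genes. With 1 library left out it was 2 to 4, beside 150 to 622 of all genes. The count lower (Isg20) was 0 with a pseudocount of 10, without a filter, with TMM scaling and with quantile normalization. It was also 0 without the mean-variance trend and in edgeR. Of all genes tested, 418 to 676 were lower in those settings. With 1 library left out the count lower was 0 to 1, beside 370 to 921 of all genes. In gp91phox-/- versus p47phox-/- the count higher was 1 without the trend and 12 in DESeq2, beside 296 and 1092 of all 14404 genes. With 1 library left out it was 1 to 9, beside 242 to 863 of all genes. The count of the set was lowest without gp91phox-/- replicate 3 and highest without gp91phox-/- replicate 1. The count lower was 1 in DESeq2, beside 1184 of all genes. With 1 library left out it was 0 to 1, beside 519 to 847 of all genes. Deviations of same-numbered libraries from their group means had correlations across genes of -0.04 to 0.08. Those of differently numbered libraries were -0.07 to 0.05. With 3 libraries per group, such values cannot decide whether the replicate numbers pair the libraries, and the labels do not state it. With the replicate number as a block, 3 of the 41 genes were higher and 0 lower in gp91phox-/- versus WT. Of all 14404 genes, 328 were higher and 549 lower in that fit. In gp91phox-/- versus p47phox-/-, 4 of the 41 were higher with the block, beside 498 of all genes. In p47phox-/- versus WT, 0 of the 41 were called, beside 127 of all genes. Of the called genes of the set and of the pathway lists, 0 changed sign in any alternative. The median of the set in p47phox-/- versus WT, -0.03 in the main fit, did change sign. It was 0.03 without p47phox-/- replicate 3, 0.05 without WT replicate 1 and 0.035 without WT replicate 3. The count of the 41 genes that were highest in gp91phox-/- replicate 3 was 27 when scaled by total reads, 26 with TMM and 25 with quantile normalization, beside 26 as deposited. The causes of these shifts were not tested. Of the 41 genes, Ifi44 and Ifit3b had the lowest mean normalized counts (90.2 and 97.0), where counting error is relatively largest.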

Other observations

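Genes upstream and downstream of the interferon receptors were also read. Of all genes, 2.53% were called higher in gp91phox-/- against WT. Of 11 tested genes that sense nucleic acids or relay the signal towards interferon, 1 rose in that comparison. This was Myd88, the adaptor of most Toll-like receptors, which had 3909.8, 4191 and 4664 normalized counts in gp91phox-/- replicates 1 to 3, 2853, 3993 and 3264 in p47phox-/- and 2853, 3006 and 2609.6 in WT (log2 fold change 0.59, SE 0.14, adjusted p = 0.027). Every gp91phox-/- library lay above every WT library, and the p47phox-/- libraries overlapped both groups. The call was lost without gp91phox-/- replicate 2 or 3 or any 1 WT library (adjusted p = 0.0536 to 0.115). Of the 6 listed negative regulators, 2 rose in gp91phox-/- against WT, beside the same 2.53% of all genes. Socs1, an inhibitor of JAK kinases, had 369, 942 and 869 normalized counts in gp91phox-/- replicates 1 to 3, 285, 468 and 534 in p47phox-/- and 313, 245 and 245 in WT (log2 fold change 1.33, SE 0.34, adjusted p = 0.0355), and gp91phox-/- replicate 1 lay far below the other replicates of its group. Ptpn2, a phosphatase that acts on JAKs and STATs, also rose (log2 fold change 0.62, SE 0.15, adjusted p = 0.0222). Both calls were lost without gp91phox-/- replicate 2 or 3 or any 1 WT library (adjusted p = 0.0686 to 0.16 for Socs1 and 0.0537 to 0.118 for Ptpn2). In p47phox-/- against WT, 0 of these genes were called in limma. At an unadjusted p under 0.05, 2 were higher and 2 lower in the 2 lists together, beside 1090 and 1074 of all 14404 genes.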
